A study of Mus musculus with 9 samples.

Results

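The mRNA levels of 7 genes whose products are used by myeloid-derived suppressor cells (MDSCs) to restrain T cells were compared in splenic MDSCs of tumour-bearing mice. The genes were taken by symbol: Arg1, Arg2, Nos2, Ido1, Il10, Cd274 and Cd84. All 7 were among the 23284 gene symbols measured. There were 9 RNA-sequencing samples in 3 groups of 3. WT PMN-MDSCs, the neutrophil-like subset, and WT Mo-MDSCs, the monocyte-like subset, came from the spleens of C57BL/6J mice labelled wild-type for p16 and p21. p16/p21-DKO Mo-MDSCs came from the spleens of C57BL/6 mice labelled as double knockouts of both CDK inhibitor genes, Cdkn2a (p16) and Cdkn1a (p21). The descriptions of DKO replicates 2 and 3 instead name p16/p22 and p16/p23, at odds with the titles and genotype labels of the same samples. All mice, those of the control groups included, bore SCT cells, a spindle cell tumour line which, according to the study's methods, came from a tumour of a carcinogen-treated p16-knockout mouse. The labels give an age of 3 weeks. By the study's methods, mice were already older than that when injected with tumour cells, and the same span lay between inoculation and collection. DKO PMN-MDSCs and MDSCs of tumour-free mice were not analysed here. MDSCs were separated with beads, Ly6G+ cells as PMN-MDSCs and the remaining Gr-1+ cells as Mo-MDSCs, so each sample is a bulk fraction. Whether a sample is 1 mouse or a pool is not given in the sources used here, and p-values then measure the spread between these samples.

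MDSCs are immature myeloid cells that accumulate in tumour-bearing hosts and limit the activation of T cells. They are known to do so by consuming L-arginine with arginases, by making nitric oxide with inducible nitric oxide synthase, by degrading tryptophan, by secreting interleukin-10 and by presenting inhibitory ligands such as PD-L1. Nitric oxide is mostly attributed to the monocyte-like subset and reactive oxygen species to the neutrophil-like subset.

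Levels are given as FPKM, fragments scaled to the length of the transcript and to the mapped fragments of the library, which allow levels of different genes to be compared per length. Differences are on the log2(FPKM + 0.1) scale. Genes that reached 1 FPKM in 3 or more of the 6 samples compared were tested with limma, and a gene was called at a Benjamini-Hochberg adjusted p below 0.05. Arg2, Cd274 and Cd84 passed this filter in both comparisons, and Arg1, Nos2, Ido1 and Il10 in neither. Both comparisons used the same WT Mo-MDSC samples. Low FPKM values of genes with a single transcript fell on steps from which the value of 1 read could be estimated in each library. By these steps 1 read was worth 0.0707 to 0.114 FPKM on a transcript with an effective length of 1 kilobase, and proportionally less on a longer one. The reads of the low members are given as estimates.

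The qRT-PCR primers of Arg1, Nos2 and Cd274 used in the study are shown because they place the transcript parts that its own assays of these effectors cover. Each matched 1 place in the protein-coding transcript of GENCODE M21 (build GRCm38), within the coding sequence. Bases in capitals flank a junction between 2 exons. The positions of primers across a junction include the intron.
Arg1 forward, exon 1, chr10:24927342-24927363: ctccaagccaaagtccttagag
Arg1 reverse, exon 3, chr10:24920738-24920759: aggagctgtcattagggacatc
Nos2 forward, exons 2 and 3, chr11:78922370-78928588: gttctcaGCccaacaatacaaga
Nos2 reverse, exon 4, chr11:78929781-78929799: gtggacgggtcgatgtcac
Cd274 forward, exon 3, chr19:29373827-29373845: gacgcaggcgtttactgct
Cd274 reverse, exons 3 and 4, chr19:29373890-29380314: gcggtatgggGCattgacttt
The products on the spliced transcripts were 185 bases for Arg1, 127 bases for Nos2 and 84 bases for Cd274. The forward and reverse primers of Arg1 lie in different exons, and a primer of each of the other pairs crosses a junction. The study states that neither Arg1 nor Nos2 was reduced in DKO Mo-MDSCs, with Arg1 raised. It describes Cd274 levels as similar in the MDSCs of both genotypes.

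Each sample had 11299 to 11418 genes at 1 FPKM or more, and the FPKM of all genes summed to 494252 to 916642, highest in the PMN-MDSC samples. The labelled cell types were checked against marker genes, given as FPKM summed over each list. The monocyte list, 8 genes including Ccr2 and Csf1r, summed to 964 to 1015 in PMN-MDSC, 1895 to 2161 in WT Mo-MDSC and 1505 to 1705 in the DKO Mo-MDSC samples. Most of the PMN-MDSC sum was Csf1r, at 745, 841 and 674 FPKM, which was not called between the subsets. The other 7 were called higher in WT Mo-MDSCs with limma, beside 18.5% of all genes. Ccr2, for 1, had 2.36 to 2.51 FPKM in PMN-MDSCs and 281 to 362 in WT Mo-MDSCs. The neutrophil list, of which 9 of 10 genes were measured, summed to 99666 to 232737 in PMN-MDSCs, 17900 to 61874 in the WT and 7063 to 17126 in the DKO Mo-MDSC samples. Markers of other spleen cells were present in every group. The 6 B cell markers reported, including Cd79a and Ms4a1, summed to 1467 to 1675 in PMN-MDSCs, 1023 to 1155 in WT and 1095 to 1383 in DKO Mo-MDSCs. The 8 red-pulp macrophage markers, including Spic and Slc40a1, summed to 6622 to 7676, 4115 to 5191 and 4551 to 6982 in the same order. Of the targeted genes, Cdkn2a had 0.258, 0.586 and 0 FPKM in the DKO samples and 0.718, 0.772 and 0.432 in WT Mo-MDSCs. Cdkn1a had 5.55, 8.52 and 6.00 FPKM in the DKO samples, overlapping the 8.18, 6.46 and 8.04 of WT Mo-MDSCs. A value per gene cannot show whether a deleted part was transcribed, and the deleted exons are not given in the sources used here, so these values do not check the genotype labels.

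Among the effectors, Arg2 differed most between the subsets. Arg2, the mitochondrial arginase (chr12:79130777-79156301, plus strand), had 97.4, 77.1 and 113 FPKM in PMN-MDSCs, 0.610, 1.04 and 1.99 in the WT and 0.891, 1.63 and 1.32 in the DKO Mo-MDSC samples. Every PMN-MDSC sample was far above every Mo-MDSC sample, and the WT and DKO Mo-MDSC samples overlapped. The mean was 95.9 ± 18.1 (SD, n = 3) in PMN-MDSCs and 1.22 ± 0.708 (SD, n = 3) in WT Mo-MDSCs, a 78.8-fold difference of the means. The log2 difference of WT Mo-MDSCs from PMN-MDSCs was -6.31 (SE 0.37, limma adjusted p = 3.43e-05), and 0.113% of the 11491 genes tested had a value as low or lower. In PMN-MDSCs Arg2 was the 1037th most abundant symbol, and in WT Mo-MDSCs the 11196th. The Mo-MDSC values rest on an estimated 8, 17 and 31 reads in WT and 13, 28 and 21 reads in DKO samples.

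Arg2 in WT Mo-MDSC replicates 1 to 3 was 0.636%, 1.09% and 2.08% of the PMN-MDSC mean, and in DKO Mo-MDSCs 0.930%, 1.70% and 1.38%. The 9 neutrophil markers measured in the same way spread widely. Cxcr2, a chemokine receptor of neutrophils, was 0.963% to 2.61% in the WT and 0.754% to 1.36% in the DKO samples, and Retnlg 1.60% to 2.66% and 0.344% to 0.831%. The receptor of G-CSF, Csf3r, lay higher, at 4.75% to 6.14% in WT and 3.66% to 4.76% in DKO Mo-MDSCs. The collagenase gene Mmp8 was at 11.6% to 15.1% and 19.6% to 30.8%, and S100a8 and S100a9 were at 9.81% to 35.4% and 3.50% to 9.65%. The granule genes Camp, Ltf and Ngp, made by immature neutrophils, were highest, between 31.0% and 126% in WT and between 14.1% and 39.2% in DKO Mo-MDSCs. From WT to DKO Mo-MDSCs the mean of Arg2 was 1.27% and 1.34% of that of PMN-MDSCs, with overlapping samples. The means of Cxcr2 (1.66% and 0.966%), Retnlg (2.07% and 0.666%) and Csf3r (5.31% and 4.07%) were lower in DKO. So were those of S100a8 (21.1% and 6.92%), S100a9 (20.6% and 6.99%), Camp (74.5% and 28.8%), Ltf (59.3% and 20.7%) and Ngp (70.5% and 23.9%). Mmp8 went the other way (13.5% and 23.7%). Between the genotypes 0 of these 9 markers were called with limma. The part of remaining PMN-MDSCs in the Arg2 level of the Mo-MDSC samples was not tested. In bulk samples fewer cells that express a gene and less RNA per cell cannot be told apart. Arg2 also overlaps Vti1b and Gm48780 on the other strand, and 17.9% of the 75-base windows of its transcript occur in transcripts of these genes. Vti1b had 75.2, 69.3 and 77.4 FPKM in PMN-MDSCs and 32.2 to 41.4 FPKM in the WT and DKO Mo-MDSC samples, so it too was higher in all PMN-MDSC samples. The part of Vti1b reads in the Arg2 levels was not tested. The libraries were stranded, but whether the counting used the strand is not given in the sources used here.

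**Figure D1:**
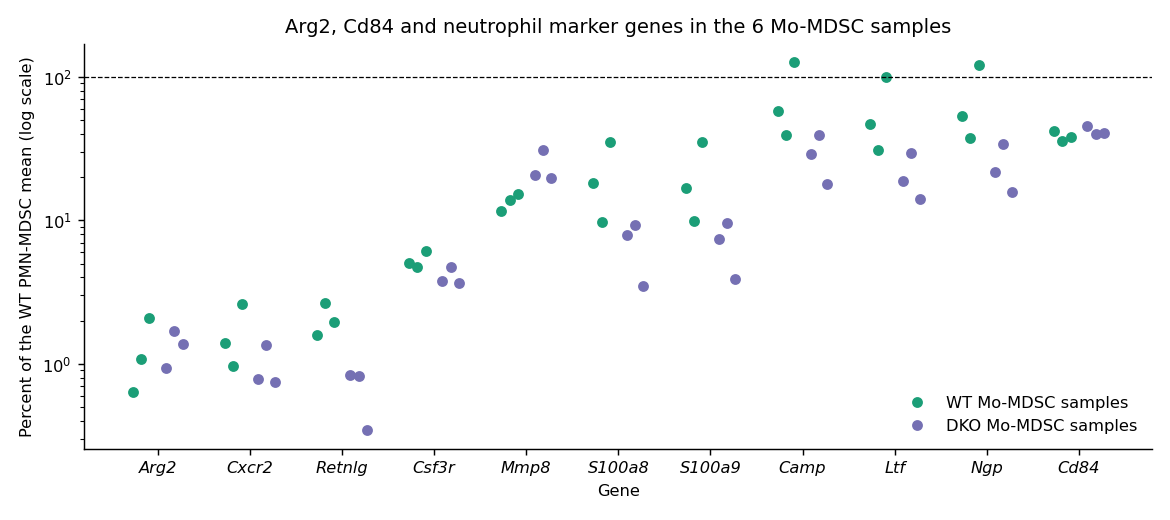
Levels of Arg2, Cd84 and 9 neutrophil marker genes in the 3 WT and 3 DKO Mo-MDSC samples, each as a percent of the gene's mean FPKM in WT PMN-MDSCs (y axis, log scale); points are samples, from left to right replicates 1 to 3, and the dashed line marks the PMN-MDSC mean. Arg2 lies between 0.636% and 2.08%, overlapping Cxcr2 and Retnlg, whereas Csf3r lies at 3.66% or above and Camp, Ltf, Ngp and Cd84 at 14.1% or above.

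Arg1, the cytosolic arginase best known in suppressive macrophages and MDSCs (chr10:24915221-24927484, minus strand), was low in WT MDSCs of both subsets and variable in DKO Mo-MDSCs. It had 0.269, 0.809 and 0.647 FPKM in PMN-MDSCs and 0.291, 0.468 and 0.736 in WT Mo-MDSCs. The DKO Mo-MDSC samples had 0.719, 1.39 and 5.40. The 2 WT groups overlapped, DKO replicate 1 lay just below WT Mo-MDSC replicate 3, and DKO replicate 3 stood apart from all other samples. The estimated reads were 3, 12 and 9 in PMN-MDSCs, 4, 8 and 12 in the WT and 11, 25 and 90 in the DKO Mo-MDSC samples. The 95% counting interval (exact Poisson, counting error only) of DKO replicate 3 was 4.35 to 6.64 FPKM, and that of WT Mo-MDSC replicate 3 was 0.381 to 1.29 FPKM.

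The difference of DKO from WT Mo-MDSCs in Arg1 was larger than counting error, and in FPKM the difference of the means was smaller than the SD of the DKO samples. The ratio of means was 5.02, with a DKO mean of 2.50 ± 2.53 (SD, n = 3) and an exact two-sided permutation p of 0.2, where 0.1 is the smallest p that 3 against 3 samples allow. In the limma fit without the filter on low values the log2 difference was 1.72 (SE 0.69, unadjusted p = 0.0414, adjusted p = 0.407). Without DKO replicate 3 it was 0.95 (SE 0.44, unadjusted p = 0.0781, adjusted p = 0.695), and the ratio of summed reads per depth was 2.12 (95% counting interval 1.23 to 3.72), against 4.95 (3.18 to 8.01) with it. Among the DKO samples replicate 3 had the lowest summed neutrophil markers, 7063 FPKM, and the lowest summed red-pulp macrophage markers, 4551 FPKM, and the highest summed B cell markers, 1383 FPKM. The part of these cells in its Arg1 level was not tested. For WT Mo-MDSCs minus PMN-MDSCs the Arg1 log2 difference was -0.15 (exact permutation p = 0.8).

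Nos2, inducible nitric oxide synthase (chr11:78920787-78960254, plus strand), was below 1 FPKM in all 9 samples. It had 0.603, 0.158 and 0.434 FPKM in PMN-MDSCs, 0.0244, 0.0196 and 0.0823 in the WT and 0, 0.0930 and 0 in the DKO Mo-MDSC samples. All 3 PMN-MDSC samples were above all 6 Mo-MDSC samples. In reads, an estimated 20, 7 and 18 in PMN-MDSCs stood against 1, 1 and 4 in WT and 0, 5 and 0 in DKO Mo-MDSCs. A count of 0 allows up to 0.0658 FPKM in DKO replicate 1 and 0.0604 FPKM in DKO replicate 3, at 3 reads per library.

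Summed over the group, Nos2 reads per depth were 8.86 times higher in PMN-MDSCs than in WT Mo-MDSCs (95% counting interval 3.77 to 25.4). The exact two-sided permutation p over samples was 0.1, the smallest possible. In the fit without the filter the log2 difference was -1.72 (SE 0.41, limma adjusted p = 0.0234), beside 13.6% of the 17357 genes called lower in that fit. The call was lost without PMN-MDSC replicate 1 or 3 and without WT Mo-MDSC replicate 1 or 2, with adjusted p between 0.0593 and 0.0801. Between DKO and WT Mo-MDSCs no difference in Nos2 was detectable at this depth, with 5 and 6 reads in all and a ratio of 0.785 (95% counting interval 0.190 to 3.09).

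Ido1, indoleamine 2,3-dioxygenase, which starts the breakdown of tryptophan (chr8:24584136-24597009, minus strand), was close to absent. It had 0.0846, 0 and 0 FPKM in PMN-MDSCs, 0.205, 0 and 0.116 in the WT and 0.0615, 0 and 0.226 in the DKO Mo-MDSC samples. All 3 groups overlapped and each held at least 1 sample at 0. The groups rest on an estimated 1, 5 and 5 reads in all. The counting interval of the ratio of WT Mo-MDSCs to PMN-MDSCs ran from 0.474 to 200.2, so that differences in either direction could not be detected. The exact permutation p was 0.4 for the subsets and 1 for the genotypes.

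Il10, the secreted cytokine interleukin-10 (chr1:131019845-131024974, plus strand), was low in all groups. It had 0.623, 0.935 and 0.831 FPKM in PMN-MDSCs, 0.840, 0.609 and 0.354 in the WT and 0.529, 0.641 and 0.416 in the DKO Mo-MDSC samples. All pairs of groups overlapped. The estimated reads were between 5 and 12 in every sample. The ratio of WT Mo-MDSCs to PMN-MDSCs in summed reads per depth was 0.726 (95% counting interval 0.403 to 1.30), with an exact permutation p of 0.3 over samples. That of DKO to WT Mo-MDSCs was 0.903 (0.487 to 1.67), with an exact permutation p of 0.9.

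**Figure D2:**
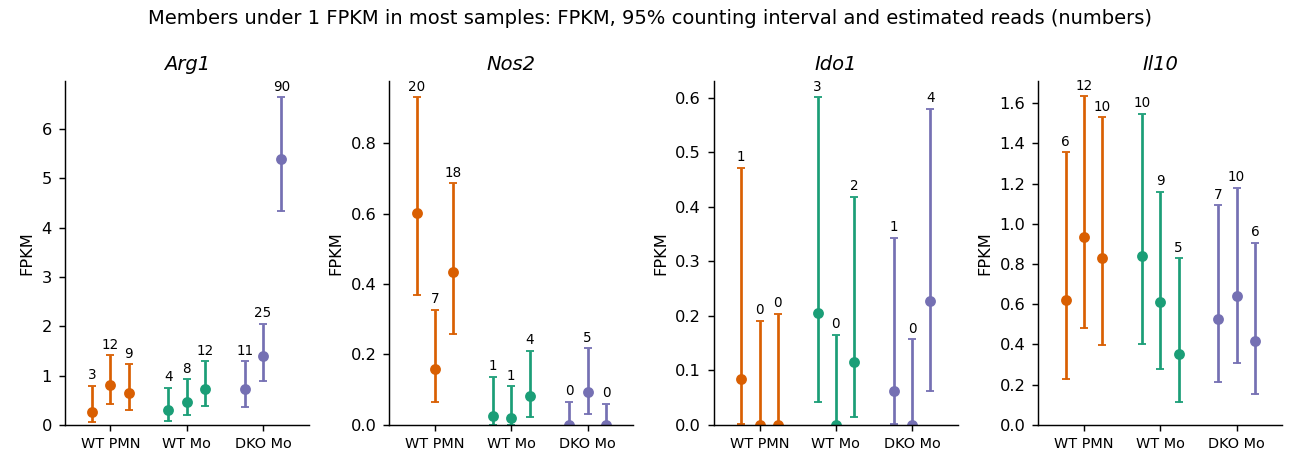
FPKM (y axis, each panel with its own scale from 0) of the 4 members that failed the filter, in the 3 samples of each group (x axis), with 95% Poisson counting intervals as bars, or the limit of 3 reads for samples at 0, and the estimated reads as numbers. DKO replicate 3 at 90 Arg1 reads lies above the intervals of all other samples, and the Ido1 intervals of all samples overlap.

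Cd274, which encodes PD-L1, the ligand of the inhibitory T-cell receptor PD-1 (chr19:29367455-29388095, plus strand), was well expressed in all 3 groups and differed little. It had 29.3, 29.0 and 30.8 FPKM in PMN-MDSCs, 26.2, 23.7 and 24.1 in the WT and 29.5, 28.6 and 28.4 in the DKO Mo-MDSC samples. All WT Mo-MDSC samples were below all samples of both other groups, and the PMN-MDSC and DKO Mo-MDSC samples overlapped. WT Mo-MDSCs were at 83.2% of the PMN-MDSC mean, a log2 difference of -0.27 (SE 0.07, limma adjusted p = 0.0270). This call was lost in 5 of the 6 fits that left out a sample (adjusted p 0.0501 to 0.0924, and 0.0334 without WT Mo-MDSC replicate 1). With samples rescaled to equal totals the difference turned to 0.18 (adjusted p = 0.247), a scaling that moved the median of all genes to 0.45.

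DKO Mo-MDSCs had 1.17 times the Cd274 mean of WT Mo-MDSCs, 28.9 ± 0.553 against 24.7 ± 1.34 FPKM (SD, n = 3). The groups did not overlap, which held with DKO higher for 7.96% of the genes tested in this comparison. The log2 difference was 0.22 (SE 0.08, 95% interval 0.04 to 0.41, unadjusted p = 0.0216) and was not called (limma adjusted p = 0.258, exact permutation p = 0.1). It kept its sign in every fit tried, between 0.20 and 0.38, with adjusted p between 0.156 and 0.777. Summed B cell and red-pulp macrophage markers were likewise lowest in WT Mo-MDSCs, at 1023 to 1155 and 4115 to 5191 FPKM, against 1095 to 1383 and 4551 to 6982 FPKM in DKO Mo-MDSCs and 1467 to 1675 and 6622 to 7676 FPKM in PMN-MDSCs. The groups overlapped between the genotypes in both sums, and 0 of the 6 and 0 of the 8 markers were called there with limma. The part of these cells in the Cd274 levels was not tested. Of the 75-base windows of the Cd274 transcript 9.22% occur in transcripts of other genes.

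Cd84, a SLAM-family surface receptor that binds itself and has been described as a marker of MDSCs (chr1:171839697-171890718, plus strand), was the most abundant of the 7 members in every group. It had 127, 118 and 145 FPKM in PMN-MDSCs, 54.1, 46.2 and 49.8 in the WT and 58.8, 51.7 and 52.5 in the DKO Mo-MDSC samples. Every PMN-MDSC sample was above every Mo-MDSC sample, while the Mo-MDSC groups overlapped. Groups without overlap, with WT Mo-MDSCs lower, made up 26.4% of the genes tested between the subsets. WT Mo-MDSCs were at 38.5% of the PMN-MDSC mean, a log2 difference of -1.37 (SE 0.10, limma adjusted p = 9.14e-05). The call held in each alternative fit, with differences between -1.44 and -0.93. Of the markers of other cells, 3 of 6 of B cells, 6 of 8 of red-pulp macrophages and 6 of 9 of neutrophils were also called lower in WT Mo-MDSCs, beside 20.6% of all genes tested, and their part in the Cd84 difference was not tested. Between the genotypes the log2 difference was 0.12 (SE 0.09, 95% interval -0.10 to 0.34, limma adjusted p = 0.571), and the exact permutation p was 0.3.

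**Figure D3:**
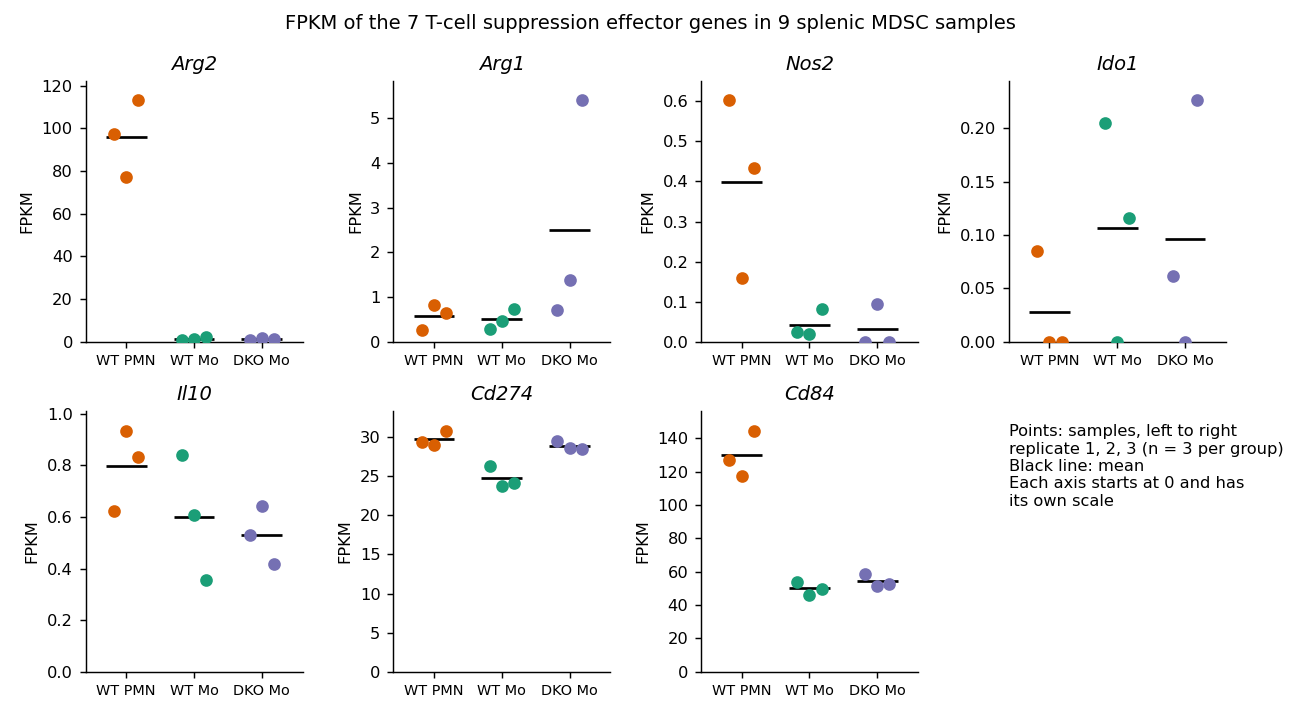
FPKM (y axis, each panel with its own scale from 0) of the 7 members in the 9 samples; points are replicates 1 to 3 of each group from left to right and lines are means (n = 3). Arg2, Nos2 and Cd84 are higher in all PMN-MDSC samples than in all Mo-MDSC samples, and Cd274 is lowest in the 3 WT Mo-MDSC samples.

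Across the members, WT Mo-MDSCs had lower levels of all 3 genes tested against PMN-MDSCs: Arg2, Cd84 and Cd274 were called lower and none was called higher. In this comparison 20.6% of the 11491 genes tested were called lower and 18.5% higher. The median log2 difference over the 3 members, which is the value of Cd84, was -1.37, and that over all genes tested was 0.01. Arg2 would not have passed the filter without its high PMN-MDSC samples, so its place in this count and median is tied to the direction found. Cd274 kept its call in 1 of 6 fits that left out a sample, and its difference turned to 0.18 with samples rescaled to equal totals. The study counted genes as higher in Mo-MDSCs at a fold above 2 with an unadjusted p below 0.05, which 0 of the 3 members and 3.55% of all genes passed. No member passed a test towards a higher level in WT Mo-MDSCs. Ido1, with 5 reads against 1, had the only positive log2 difference, 0.61 (SE 0.46, limma adjusted p = 0.415 without the filter).

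Between DKO and WT Mo-MDSCs none of the 3 members tested was called, beside 0.253% of 11451 genes called with limma in either direction. At an unadjusted p below 0.05 Cd274 was the 1 member of 3, beside 15% of all genes. The median log2 difference over the 3 members, which is the value of Arg2, was 0.17, and that over all genes tested was -0.02. The study counted genes as lower in DKO Mo-MDSCs at a fold below 0.75 with an unadjusted p below 0.05, which 0 of the 3 members and 4.43% of all genes passed. By adjusted p without the filter none of the 7 members was called with limma, beside 0.0749% of 17351 genes, and Arg1 and Cd274 had an unadjusted p below 0.05. For Arg2 the 95% interval of the log2 difference, -0.80 to 1.15 around 0.17, left room for a change of either sign.

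**Figure D4:**
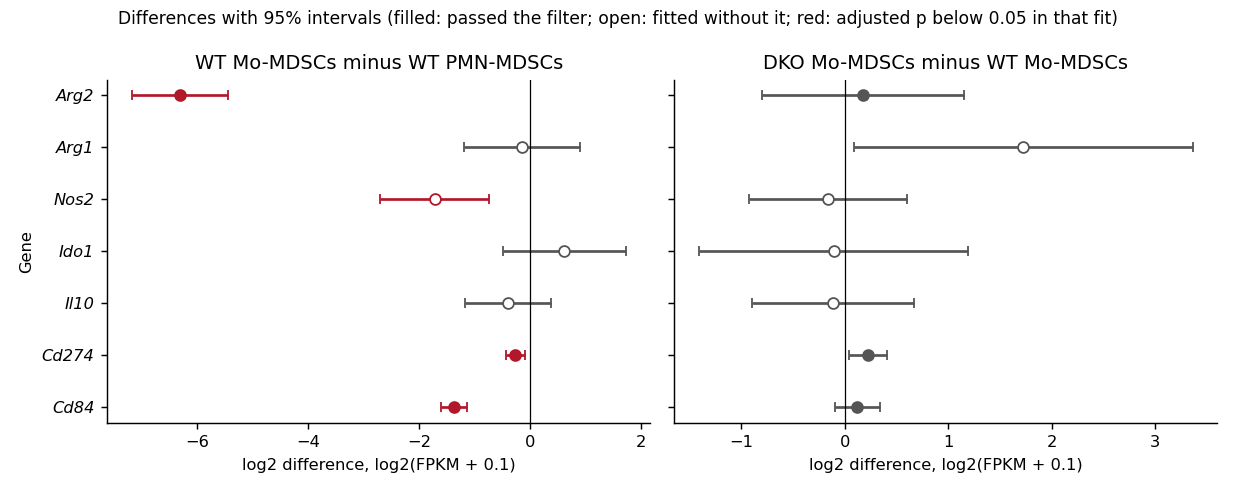
Log2 differences of the 7 members with 95% intervals from limma (x axis, a different scale in each panel) for WT Mo-MDSCs minus PMN-MDSCs and DKO minus WT Mo-MDSCs, 3 samples per group. Arg2, Cd84 and Cd274 are called lower in WT Mo-MDSCs, Nos2 only in the fit without the filter, and no member is called between the genotypes.

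The order of the members by mean FPKM differed between the subsets mainly by the place of Arg2. In PMN-MDSCs Cd84, Arg2 and Cd274 came in this order with no overlap between neighbours, far above Il10, Arg1, Nos2 and Ido1. In WT Mo-MDSCs Cd84 and Cd274 led, and Arg2 followed without standing apart from Il10, whose samples overlapped with it and with Arg1. In DKO Mo-MDSCs Arg1 followed Cd274 at 2.50 FPKM, overlapping with Arg2 at 1.28 FPKM. Ido1 and Nos2 were the lowest members in all groups.

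The genes whose pattern over the 9 samples was most like that of a member were named by the root mean square difference of mean-centred log2 values, among 11519 genes with a mean of at least 1 FPKM. For Arg2 these were Sycp2 (0.30), Ifitm1 (0.35) and Cd101 (0.38), with Cd101, a surface protein of mature neutrophils, at 102 FPKM in PMN-MDSCs and 1.32 in WT Mo-MDSCs. For Cd84 they were Klf6 (0.08), Cpeb2 (0.08) and Cd44 (0.08). For Cd274 they were Mepce (0.04), Arid1b (0.06) and Adnp2 (0.06), with means of 23.1 FPKM in PMN-MDSCs and 18.7 in WT Mo-MDSCs for Mepce. The genes closest to Arg1, Mir5107, Gm2848 and Zbtb20, were less alike (0.66 to 0.67), and Nos2, Ido1 and Il10 did not reach a mean of 1 FPKM.

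Genes that work with the members are given as lists, beside 39.1% of all genes tested that were called between the subsets in either direction. Of 20 genes of arginine and nitric oxide metabolism 16 were tested, and 2 were called higher in WT Mo-MDSCs and 2 lower, or 6 and 1 with samples rescaled to equal totals. Oat, ornithine aminotransferase, which uses the ornithine that arginases make, fell by 0.80 on the log2 scale, and Ddah2, which degrades inhibitors of nitric oxide synthase, fell by 0.93 (limma adjusted p 3.46e-04 and 0.00575). Spr, which makes the cofactor of nitric oxide synthase, rose by 0.56 and Asl, which regenerates arginine, by 0.35 (limma adjusted p 0.0102 and 0.0170). In the list around tryptophan catabolism 2 of 8 tested genes were called, both higher, and neither encodes an enzyme of tryptophan breakdown. Ahr, the receptor that senses kynurenine, rose by 1.27 and Wars, the tryptophan tRNA synthetase, by 0.28 (limma adjusted p 2.81e-04 and 0.0153). The other 6 tested genes of this list were not called. Between the genotypes 0 of the 16 and 0 of the 8 tested genes were called with limma.

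Genes of secreted suppressors and their receptors were all called between the subsets, with 5 of 10 tested higher and 5 lower in WT Mo-MDSCs, or 5 and 2 with equal totals, beside 18.5% and 20.6% of all genes. Il1rn, the antagonist of the interleukin-1 receptor, had 80.5, 71.1 and 85.5 FPKM in PMN-MDSCs, 8.18, 6.31 and 8.53 in the WT and 3.54, 3.34 and 3.59 in the DKO Mo-MDSC samples. The 3 groups did not overlap. Its log2 difference was -3.36 between the subsets (SE 0.13, limma adjusted p = 8.62e-06) and -1.10 between the genotypes (SE 0.14, limma adjusted p = 0.0299). The genotype call held in 1 of 6 fits that left out a sample and was lost without the filter. The study describes Il1rn levels as similar in WT and DKO MDSCs, citing a supplementary figure whose data were not compared here. Around Il10 itself, the signalling chain of its receptor, Il10ra, was 1.07 higher and the shared chain Il10rb 0.69 lower in WT Mo-MDSCs (limma adjusted p 1.42e-04 and 5.40e-04). Lgals1, galectin-1, was 1.31 higher (limma adjusted p = 2.42e-04).

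Around Cd274, 16 of the 20 measured co-inhibitory ligands and receptors were tested, and 3 were called higher and 3 lower in WT Mo-MDSCs, or 6 and 1 with equal totals. Havcr2, which encodes TIM-3, was 1.14 higher and Tnfrsf14, the ligand of BTLA, 0.64 higher, while the inhibitory receptor gene Lilrb4 was 1.09 lower and Cd80, which binds CTLA-4 and PD-L1, 0.72 lower (limma adjusted p between 5.86e-04 and 0.00469). Around Cd84, 9 SLAM-family genes and adaptors were tested. Slamf8 (1.60) and Cd48 (0.54) were called higher and none lower (limma adjusted p 4.13e-04 and 0.00296), beside 18.5% and 20.6% of all genes. The other 7 were not called, and the median log2 difference of this list was -0.19, so the list showed no common direction against that of Cd84. All 4 genes of adenosine production and sensing were called, beside the 39.1% of all genes. Of these, Nt5e reached 1 FPKM only in PMN-MDSCs and Adora2b only in WT Mo-MDSCs. Both thus entered the test through the group where they were high, so the count is not independent of the difference. Entpd1 (CD39, -1.67) and Nt5e (CD73, -1.69), the enzymes that make adenosine from ATP, were lower, and the receptors Adora2b (3.70) and Adora2a (1.23) were higher in WT Mo-MDSCs (limma adjusted p between 2.67e-05 and 0.00302). Between the genotypes 0 genes of these 3 lists were called with limma.

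Of 16 genes of cytokine signalling that feeds into the effectors, 12 were called lower and 3 higher in WT Mo-MDSCs, beside 20.6% and 18.5% of all genes, with a median log2 difference of -0.58. With samples rescaled to equal totals, which moved the median of all genes to 0.45, 5 were called lower and 3 higher and the median of the list was -0.14. The lower ones included Socs3 (-2.59), an inhibitor of cytokine receptors, the kinase gene Jak1 (-0.90), Irf1 (-0.82), a transcription factor that drives Nos2 and Cd274 in response to interferon, and Il4ra (-1.11), the receptor through which interleukin-4 raises Arg1 (limma adjusted p between 3.77e-05 and 7.84e-04). Socs3 had 222, 170 and 257 FPKM in PMN-MDSCs, 32.5, 38.2 and 35.7 in the WT and 14.6, 20.1 and 15.3 in the DKO Mo-MDSC samples. It was the 1 gene of this list called between the genotypes, at -1.10 (SE 0.13, limma adjusted p = 0.0278). Il1rn and Socs3 thus were the 2 genes of the 7 lists that were called between DKO and WT Mo-MDSCs, both lower in all DKO samples and both highest in PMN-MDSCs.

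The genotype calls of Il1rn and Socs3 stand on few samples. With a sample left out Il1rn was called in 1 of 6 fits (without WT Mo-MDSC replicate 2, adjusted p = 0.0247, otherwise up to 0.176) and Socs3 in 1 of 6 (without DKO replicate 2, adjusted p = 0.0143, otherwise up to 0.153), with differences of -1.24 to -1.01 for both. The summed neutrophil markers moved with them, at 17900 to 61874 FPKM in WT and 7063 to 17126 FPKM in DKO Mo-MDSCs. Most of these sums comes from S100a8 and S100a9. Of the 9 neutrophil markers 0 were called with limma between the genotypes. Ltf, Ngp, Retnlg, S100a8 and S100a9 were lower in all DKO than in all WT samples, beside 12.9% of all genes tested. The highest DKO and lowest WT samples were close for S100a8 (6124 and 6472 FPKM) and S100a9 (6734 and 6928 FPKM). Cxcr2, Camp and Csf3r overlapped, and Mmp8 was higher in all DKO samples (log2 difference 0.79, limma adjusted p = 0.156), beside 7.96% of all genes tested. The part of neutrophils in the Il1rn and Socs3 differences was not tested.

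**Figure D5:**
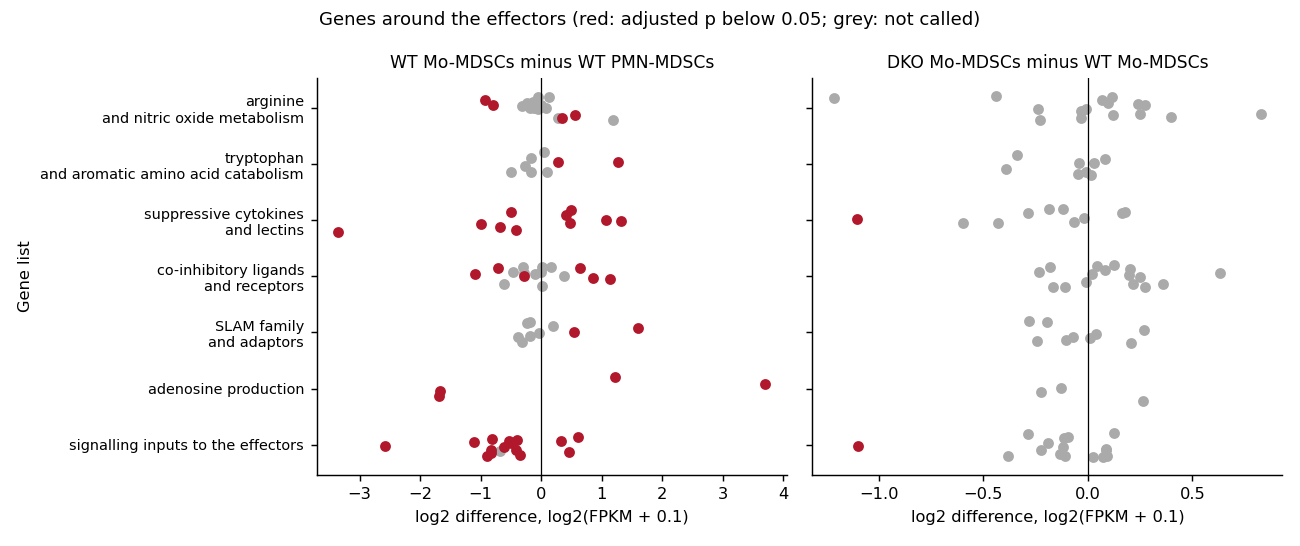
Log2 differences (x axis, a different scale in each panel) of the genes tested in 7 lists around the effectors (y axis), for WT Mo-MDSCs minus PMN-MDSCs and DKO minus WT Mo-MDSCs; each point is a gene and red points were called by limma. Calls are frequent between the subsets, and between the genotypes the red points are Il1rn and Socs3.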

How the data were processed

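The authors prepared stranded mRNA libraries, sequenced single-end reads of 75 bases, mapped them to mm10 with TopHat2 2.0.13, Bowtie2 2.2.3 and SAMtools 0.1.19 and deposited FPKM values calculated with Cuffnorm 2.2.1, 1 file per sample. The gene annotation is not given in the sources used here. The members and gene lists were chosen with earlier results of these data known. A further marker of the B cell list is not reported here.

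FPKM values were used as deposited, on the log2 scale after adding 0.1. Genes that reached 1 FPKM in 3 or more of the 6 samples were fitted with limma 3.58.1 in R 4.3.3 (lmFit, eBayes with a trend), with the 2 groups of each comparison and no covariate. The script was tested on simulated data. From each list, at most 4 called genes with the smallest adjusted p are named per comparison. Exact permutation tests enumerated the 20 divisions of 6 samples.

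Reads were estimated from low genes, under 0.5 FPKM with a single GENCODE M21 transcript longer than 800 bases, taking an effective length of 200 bases less. Of these genes 36.1% to 41.1% per library lay within 1.5% of 1, 2 or 3 steps. For each low member the effective length was then adjusted within 10%, after which its values under 100 reads lay within 0.0302 of whole reads. These estimates were not tested as counts.

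Replicate numbers come from the titles. Library numbers were 237 to 239 for replicate 1 and 326 to 331 for replicates 2 and 3, and what they mark is not given in the sources used here. Between the subsets, deviations of same-numbered samples correlated at 0.200 to 0.483, so a fit with the numbers as pairs was run as an alternative. The reported fits and the exact permutation tests are unpaired, so their p-values do not use the pairs. The paired fit changed no call of a member. Python 3.11.15 with pandas 2.3.3 and scipy 1.17.1 was used.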

Additional observations from a re-analysis of the deposited data

How the results depend on the processing

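Alternatives were pseudocounts of 1 and 0.01, no filter, a filter of 1 FPKM in every sample, a single fit of the 9 samples, rescaling to equal totals, quantile normalization, the replicate block, replicates 2 and 3 only, leaving out each sample, and a fold above 2 or below 0.75 with an unadjusted p below 0.05 in place of the adjusted p. Fits without the filter that left out a sample, and these fold thresholds without the filter, were chosen after seeing the data. Between the subsets the count of members called was between 2 and 4 throughout, with 3 in the replicate block as in the reported fit, while the block called 6584 in place of 4492 of all genes. Under the filter of 1 FPKM in every sample Arg2 was not tested. Rescaling to equal totals turned Cd274 from -0.27 to 0.18, moved the median of all genes from 0.01 to 0.45 and raised the share of higher calls from 47.2% to 86.0%. Quantile normalization (-0.18, adjusted p = 0.0716) and replicates 2 and 3 only (-0.32, adjusted p = 0.0588) also ended the Cd274 call. The Nos2 difference, -1.72, was -0.41 and -2.98 with pseudocounts of 1 and 0.01. Of the other genes named, Wars and Asl lost their calls with replicates 2 and 3 only (adjusted p 0.0955 and 0.0582) and without WT Mo-MDSC replicate 3 (0.0611 and 0.0613), Wars also without replicate 1 (0.0514) and in the single fit (0.0603), and Asl without replicate 2 (0.0556). Il10rb, Ddah2 and Cd80 lost theirs under equal totals (0.0709, 0.115 and 0.224). All genes called numbered 6771 under equal totals and 2952 with replicates 2 and 3 only.

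Between the genotypes no member was called in any fit by adjusted p. The fold thresholds without the filter passed 1 member, Arg1, which was above a fold of 2, a limit that the study did not set for this comparison. Leaving out a sample moved Arg2 between -0.20 and 0.58, with -0.20 without WT Mo-MDSC replicate 1 and -0.0078 without DKO replicate 2, with the filter and without it. Same-numbered samples correlated at -0.07 to 0.35 there, so the numbers were not taken as pairs, and the replicate block called 0 members and 20 in place of 29 of all genes. All genes called numbered 7 with replicates 2 and 3 only, 13 without the filter, 51 in the single fit and 8 to 23 with a sample left out. Il1rn and Socs3 were not called without the filter (adjusted p 0.0770 and 0.0624) or with replicates 2 and 3 only (0.370 and 0.290). Equal totals moved the median of all genes from -0.02 to 0.14 between the genotypes. For Arg1, Nos2, Ido1 and Il10 the number of reads limits what can be detected.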

Other observations

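Expression of the 2 targeted loci was also measured in PMN-MDSCs, which carry both genes. Cdkn2a had 0.355, 1.47 and 1.36 FPKM there, and Cdkn1a had 2.95, 1.83 and 2.40 FPKM, below all 6 Mo-MDSC samples for Cdkn1a.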
